A study of Triticum aestivum with 18 samples.

Results

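The comparison was of 3 arrays of wheat roots grown with low nitrogen (low N) and 3 arrays of roots from the nutrient-replete control plot, 6 of the 18 arrays of the series, picked by their titles. All plants were Triticum aestivum cv. Hereward, a winter wheat, sampled as roots at booting, the stage just before the ear emerges, in 2011. They grew on Broadbalk, a wheat field at Rothamsted where single fertilisers have been left out of chosen plots over the long term. The control group is labelled as having optimal nutrient supply. The low N group is titled low nitrogen fertilization, while by the treatment label N fertiliser has been withdrawn since 1843, as have those of the other nutrients except S. The labels do not say whether these plots received some nitrogen or none. The other 12 arrays came from plots low in K, Mg, P or S, 3 each, where S withdrawal began in 2000. Titles call the 3 arrays of a group biological replicates, and the series text mentions 1 control plot. That text counts 12 samples where 18 arrays were analysed here, and the labels do not resolve the difference. If the arrays of a group share a plot, their p-values measure the spread within plots, and the effect of a treatment cannot be told apart from that of its plot.

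Cereal roots take up nitrate and ammonium through plasma membrane transporters, reduce nitrate by way of nitrite to ammonium, and fix ammonium into glutamine and glutamate. Transporter and assimilation genes are known to answer to nitrogen supply. Temperate cereals also store carbon as fructans, which exohydrolases break down again.

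A probe set is a group of short probes for a transcript, and its intensity is the brightness that MAS5, the authors' array summary, gave it. Detection calls were not used, so values of a few units cannot be told from background. Probe sets entered the tests when 3 or more of the 18 arrays held them at no less than that array's median, which left 34255 of 61179 wheat probe sets. A probe set was called at a limma adjusted p under 0.05, with Benjamini-Hochberg adjustment over all those tested. Array medians were 60.1 to 61.1 in low N, 53.6 and 54.4 in control arrays 1 and 3, and 68.6 in control array 2. They were 53.3 to 62.0 in low K, 68.5 to 72.0 in low Mg, 69.0 to 69.8 in low P and 65.2 to 72.4 in low S. In a principal component analysis the first component placed control array 2 at 12.3, control arrays 1 and 3 at -66.2 and -52.8, and low N at -27.1 to -12.1. The second component held low N at -59.3 to -37.3 and the control at -2.52 to 13.5. Correlations of log2 intensity ran 0.969 to 0.972 among low N arrays, 0.955 to 0.966 among control arrays and 0.953 to 0.967 between the groups. Control array 2 stood apart from the other control arrays by median and first component. Correlation did not set it apart, as control arrays 2 and 3 were the closest control pair, at 0.966. On the first component low K ran from -53.0 to -33.2, low Mg from 13.9 to 18.3, low S from 13.3 to 36.8 and low P from 42.5 to 63.9. Values without control array 2 are given after those with all arrays. The 5′/3′ ratio of the ubiquitin control gene, a sign of RNA integrity, was 1.23 to 1.31 in low N and 1.19 to 1.28 in the control, so the groups overlapped. For the control gene G6PDH it was 0.060 to 0.071 and 0.039 to 0.068, and for GAPDH 3.63 to 4.55 and 2.53 to 4.65. The middle to 3′ ratio of sucrose synthase was 0.093 to 0.104 and 0.071 to 0.099. The ratios differed widely between control genes, so ubiquitin alone does not fix RNA integrity.

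Low N roots differed from control roots at 142 probe sets, 0.415% of those tested. Of these 117 fell (0.342% of those tested) and 25 rose (0.073%). Among the falls 56 were over 2-fold, 20 over 4-fold and 9 over 8-fold. Among the rises 7 were over 2-fold, and 2 of these were over 8-fold. The larger of the 2, at 4.27 log2, had a low N mean of 53.9, below the low N array medians, and is not named. The other, TaAffx.131750.2.S1_at, lost its call on leaving out any 1 of the 6 arrays. The median log2 difference was -0.97 among the falls and 0.68 among the rises, and 0.03 over all tested probe sets. For all 142 the low N arrays lay wholly outside the range of the control arrays, as they did at 15.9% of all tested probe sets. The control mean was above an intensity of 1000 at 80 of the falls. In whole roots, fewer cells of a type and less RNA per cell cannot be told apart.

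The steepest fall was at Ta.4360.1.A1_at, which has no gene name in the annotation. Its intensity was 6.50, 7.86 and 9.17 in low N arrays 1, 2 and 3, and 861, 234 and 338 in control arrays 1, 2 and 3. Low N sat near background while every control array was well above it, and the fitted difference was -5.72 ± 0.53 log2 (SE; limma adjusted p = 6.45e-05). The low N level is too close to background to fix this fold. Among the 12 arrays of the other deficiencies the same probe set ran from 62.3 to 873.

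The next fall, at Ta.13989.1.S1_at, began from a bright level. It gave 107, 121 and 326 in low N and 17300.3, 6645 and 4952 in the control, a difference of -5.68 ± 0.64 log2, adjusted p = 0.000419. Control array 1 was the highest of its group and low N array 3 the highest of its own. Group means elsewhere were 10699 ± 7957 in low K (SD, n = 3), 3638 ± 2427 in low Mg, 17206 ± 3320.1 in low P and 4696 ± 1328 in low S. The lowest of those 12 arrays stood at 1686, so every array outside low N was brighter than every low N array.

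Ta.4399.1.S1_x_at stood at 288, 433 and 495 in low N and at 10487, 5707 and 5664 in the control (-4.14 ± 0.40 log2, adjusted p = 9.01e-05). The suffix x marks probe sets that can hybridise with related transcripts, which in hexaploid wheat includes copies on the other genomes. A pair of probe sets of one numbered transcript cluster fell together. Ta.6744.1.S1_at read 381, 475 and 496 in low N against 9324, 5428 and 5375 in the control (-3.86 ± 0.34 log2, adjusted p = 4.62e-05). Its partner Ta.6744.2.S1_s_at read 2269.9, 3021 and 3666 against 32753, 21646 and 29621 (-3.24 ± 0.21 log2, adjusted p = 1.07e-06). The latter had the smallest p of all tested probe sets, and its control arrays were far above its low N arrays.

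The remaining members of the 8 steepest falls were dimmer than Ta.6744. Ta.9492.1.S1_at read 3618, 2790.4 and 1952 in the control and 189.7, 333 and 391 in low N (-3.21 ± 0.47 log2, adjusted p = 0.00423). TaAffx.115546.1.S1_at read 682, 226 and 184 in the control and 4.70, 43.0 and 43.0 in low N (-3.89 ± 0.69 log2, adjusted p = 0.0183). Ta.6831.1.S1_at read 1089, 281 and 235 in the control and 33.4, 50.9 and 62.4 in low N (-3.13 ± 0.62 log2, adjusted p = 0.0387). In both of the latter control array 1 was more than 2-fold brighter than the other control arrays. Without control array 1 both lost their call, at -3.31 log2 (adjusted p = 0.0868) for TaAffx.115546.1.S1_at and -2.44 log2 (adjusted p = 0.124) for Ta.6831.1.S1_at.

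**Figure D1:**
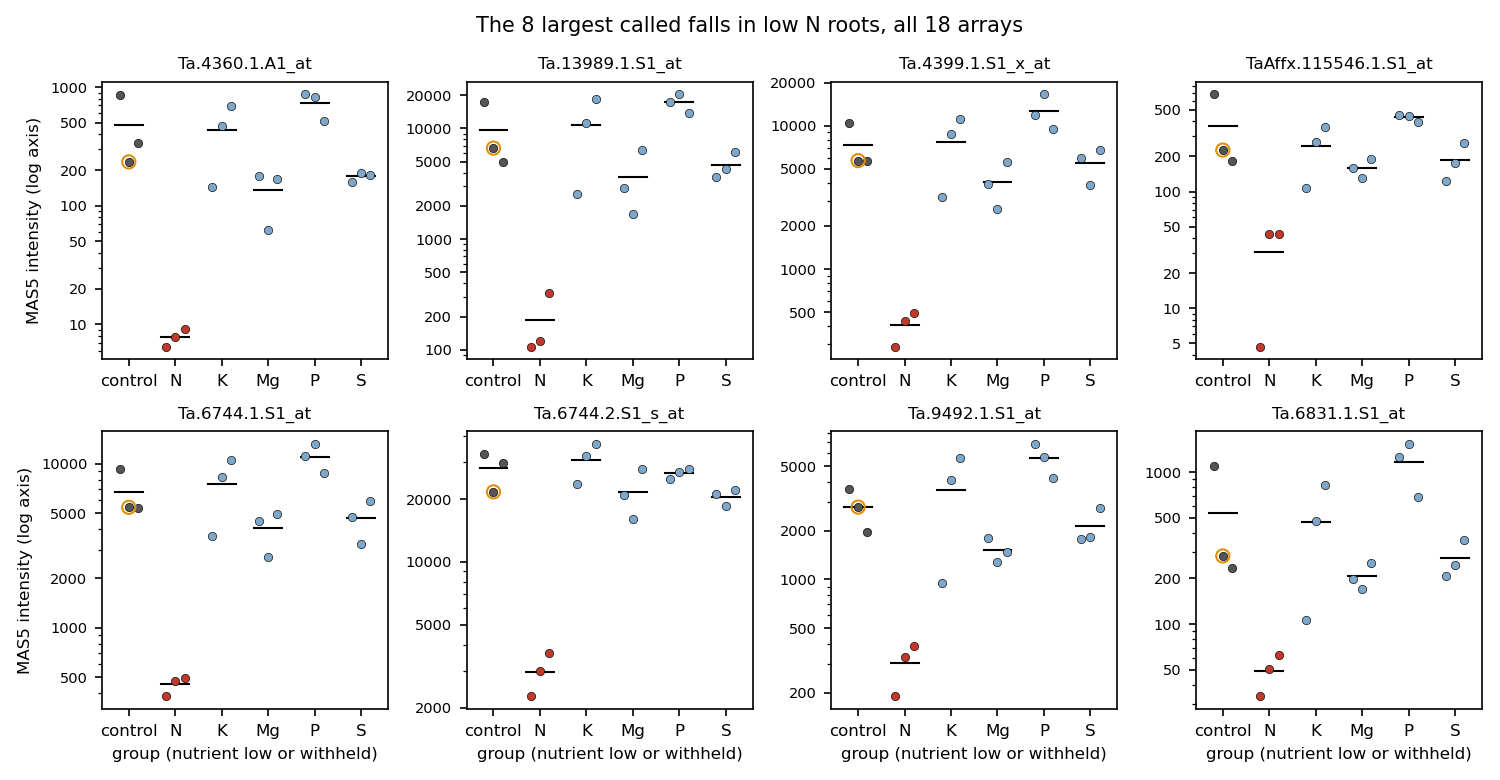
MAS5 intensity (log axis) of the 8 steepest called falls on all 18 arrays by group, where points are arrays, bars group means and the ring control array 2. In each panel the 3 low N points (red) lie below all 15 others, as at Ta.13989.1.S1_at, where low N spans 107 to 326 and the control 4952 to 17300.3.

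All 8 were below all 15 other arrays of the series. Low N was beyond all 15, above or below, at 3.88% of tested probe sets, and at 91 of the 117 falls and 15 of the 25 rises. Low N was then set against the mean of the low K, Mg, P and S groups, which brings in no control array but shares the low N arrays. That contrast called 11.6% of all tested probe sets, 6.12% higher and 5.44% lower in low N. The 8 falls were called in it, with adjusted p from 6.88e-08 to 0.00167 and differences as low as -5.36 log2. Of the 142 probe sets called against the control, 133 were called there too and in the same direction, 115 of the falls and 18 of the rises. The mean covers groups that differ among themselves. Against the same control arrays, which these values share with low N, the 8 steepest falls stood at -1.73 to -0.38 log2 in low Mg and -1.21 to -0.37 in low S, all below the control, at -0.49 to 0.14 in low K and at -0.06 to 1.40 in low P.

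Among the rises, Ta.3504.1.A1_at stood at 2601, 2738 and 2143 in low N and at 1015, 1332 and 1066 in the control (1.13 ± 0.17 log2, adjusted p = 0.00598). In the other deficiencies it ran from 773 to 1483, so the low N arrays were the highest of the series. Of the 25 rises it was the one that stayed called whichever of the 6 arrays was left out. It differed from the mean of the other deficiencies by 1.14 ± 0.14 log2 (adjusted p = 0.000203).

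Ta.303.1.S1_at rose from 428, 726 and 440.0 in the control to 1100.1, 1052 and 1161 in low N (1.10 ± 0.22 log2, adjusted p = 0.0395), with control array 2 nearest to low N. A second probe set of that cluster, Ta.303.1.S1_x_at, was called higher as well (0.64 ± 0.13 log2, adjusted p = 0.0452). Ta.24351.1.S1_x_at rose from 218, 313 and 262 to 535, 405 and 520.0 (0.89 ± 0.15 log2, adjusted p = 0.0142). Ta.303.1.S1_at and Ta.24351.1.S1_x_at were higher in low N than on any of the 15 other arrays. The same held for Ta.17389.1.S1_at, which rose from 235, 206 and 235 to 472, 405 and 411 (0.93 ± 0.19 log2, adjusted p = 0.0415).

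The other members of the 8 largest rises were dim. TaAffx.131750.2.S1_at gave 127, 116 and 71.8 in low N and 12.9, 6.72 and 15.4 in the control (3.21 ± 0.66 log2, adjusted p = 0.044), and its call was lost on leaving out any 1 of the 6 arrays. Ta.5444.1.A1_at gave 109.6, 83.8 and 131 against 21.9, 32.3 and 48.6 (1.71 ± 0.33 log2, adjusted p = 0.0321). Ta.5915.2.S1_at gave 168, 177 and 144 against 84.0, 64.8 and 31.2 (1.55 ± 0.30 log2, adjusted p = 0.0328). TaAffx.31931.1.S1_at gave 257, 175 and 185 against 85.5, 125 and 79.6 (1.10 ± 0.21 log2, adjusted p = 0.0328). Ta.5444.1.A1_at and TaAffx.31931.1.S1_at lost their calls on leaving out 5 of the 6 arrays in turn, and Ta.5915.2.S1_at on leaving out 4. Groups without overlap were a condition for naming these probe sets. Against the mean of the other deficiencies these 4 stood at 0.39 to 1.65 log2 and were not called, with adjusted p from 0.0502 to 0.298.

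**Figure D2:**
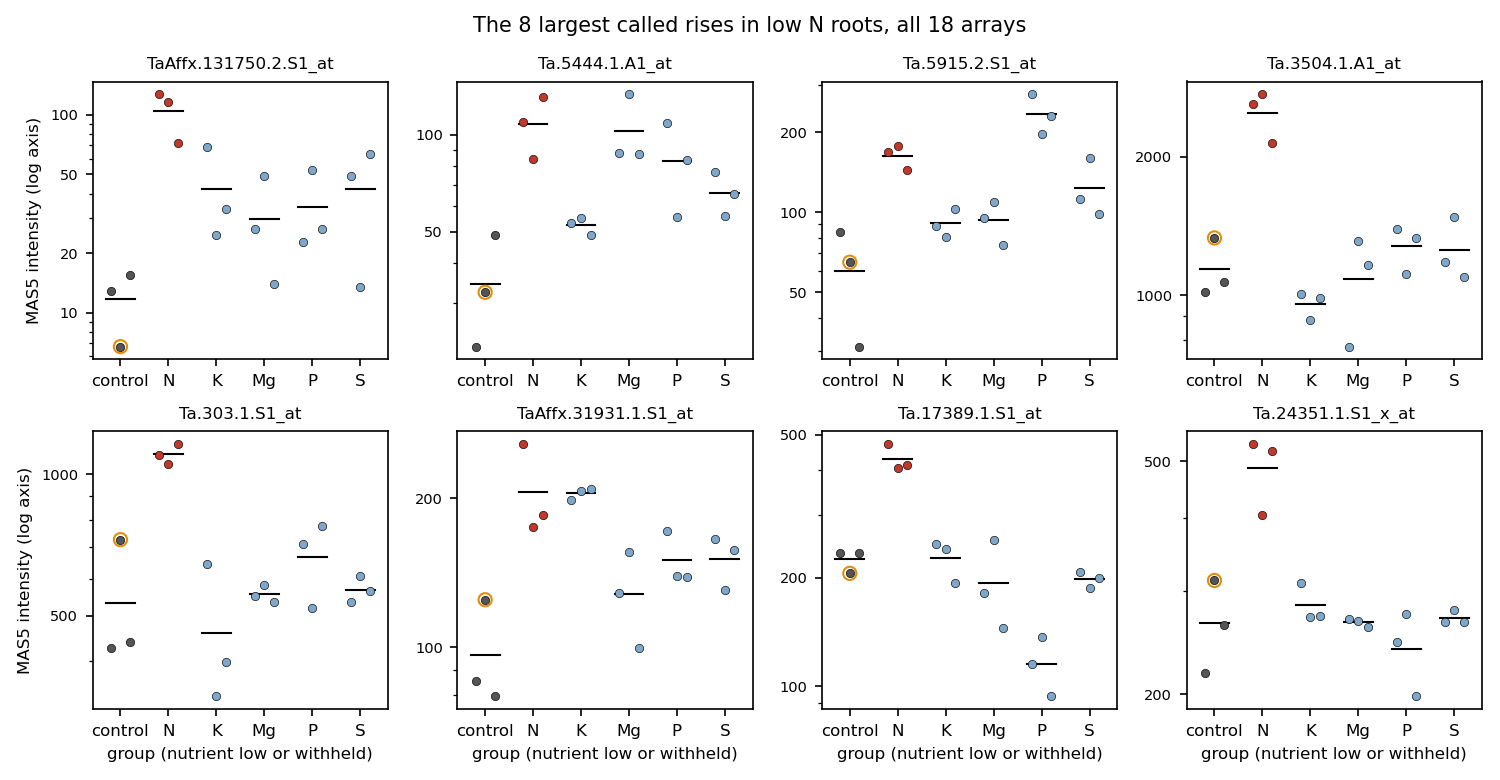
MAS5 intensity (log axis) of the 8 largest called rises whose brighter group averaged at least 100, on all 18 arrays by group, where points are arrays, bars group means and the ring control array 2. At Ta.3504.1.A1_at the low N points (2143 to 2738) lie above every other array, while at Ta.5444.1.A1_at they lie among those of other deficiencies.

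Probe sets of one transcript cluster, numbered alike in the array's identifiers, can report on the same or closely related transcripts. The 142 calls belonged to 124 clusters, of which 17 held more than 1 called probe set, 35 probe sets in all. In each of the 17 the called probe sets had 1 direction. All 3 tested probe sets of Ta.28002 fell, and the brightest, Ta.28002.1.A1_at, read 8325, 7042 and 5859 in the control and 2789.9, 2251 and 2845 in low N (-1.42 ± 0.17 log2, adjusted p = 0.000793). Ta.303 was mixed beyond its 2 called sets, with 4 of 6 tested probe sets below the control, as low as -0.54 log2.

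The platform annotation gave 1 gene for 7 of the 142 called probe sets, and each of these genes is listed by a number with no further name, so no role is given. LOC543150 had both of its probe sets lower. On Ta.21350.2.S1_at the intensity was 3802, 3435 and 7564 in low N and 16555, 16589 and 17390.1 in the control. The control arrays were nearly equal and low N array 3 lay apart from its group, without overlap between groups (-1.87 ± 0.26 log2, adjusted p = 0.00278). Across the other deficiencies it ran from 8513 to 24469.9, wholly above low N. On Ta.30711.1.S1_x_at low N read 9834, 8645 and 13274 against 15096, 16782 and 17146 (-0.65 ± 0.13 log2, adjusted p = 0.0351).

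LOC100125738 fell from 3657, 3723 and 3235 in the control to 1933, 1962 and 2769 in low N (-0.69 ± 0.13 log2, adjusted p = 0.0278). LOC780641 fell from 3195, 3404 and 3266 to 2279, 2690.4 and 2139 (-0.48 ± 0.10 log2, adjusted p = 0.0415). LOC543390 fell from 6235, 6923 and 5973 to 4174, 4776 and 4822 (-0.47 ± 0.09 log2, adjusted p = 0.0267). Low N was below every array of the other deficiencies for LOC780641 and LOC543390, and not for LOC100125738. LOC543105 fell on its brighter probe set from 1482, 1235 and 1160.0 to 844, 842 and 916 (-0.57 ± 0.11 log2, adjusted p = 0.0317), while its other probe set stood at -0.74 ± 0.67 log2 (adjusted p = 0.726). LOC543453 rose from 286, 311 and 318 to 482, 517 and 466 (0.68 ± 0.13 log2, adjusted p = 0.0318) and was higher in low N than on any of the 15 other arrays.

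No gene of nitrogen uptake or assimilation could be followed by name. Lists for nitrate uptake and reduction, ammonium transport, glutamine, glutamate and asparagine synthesis, and amino acid and peptide transport matched no name in the annotation. Of the 101 genes with a name other than a number, 75 had a tested probe set, 122 probe sets in all. By limma 0 of these 122 were called, beside 0.415% of all tested probe sets. An unadjusted limma p under 0.05 was found at 21 of the 122, or 17.2%, against 11.4% of all tested probe sets.

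Nearest to a call was 6-FEH, encoding a fructan exohydrolase, an enzyme that removes fructose from stored fructan. On its brighter probe set it read 328, 239 and 275 in low N and 187, 123 and 103 in the control, at 1.06 ± 0.23 log2, adjusted p = 0.051. The groups did not overlap, and a second probe set of the gene stood at 1.20 ± 0.43 log2, adjusted p = 0.288. Against the mean of the other deficiencies, where it ran from 91.8 to 148, 6-FEH was higher by 1.26 ± 0.18 log2 (adjusted p = 0.000616). 1-FEH, encoding another fructan exohydrolase, lay the other way, at 5975, 6268 and 5984 in low N against 7295, 7340.1 and 7674 (-0.29 ± 0.08 log2, adjusted p = 0.134).

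All 4 photosynthesis genes had negative log2 differences on their brightest probe sets, with a median of -0.60. By limma 0 were called, beside 0.415% of all tested probe sets. PsbP, of the oxygen-evolving complex, read 156, 142 and 127 in low N and 218, 337 and 421 in the control (-1.16 ± 0.35 log2, adjusted p = 0.208), with no overlap. Its second probe set stood at -1.52 ± 0.35 log2, adjusted p = 0.0736. PsbO, whose product belongs to that complex too, read 181, 219.7 and 195 against 168, 465 and 345 (-0.60 ± 0.39 log2, adjusted p = 0.588), and control array 1 was below all low N arrays. The Rieske protein gene petC read 132, 126 and 117 against 164, 184 and 223 (-0.59 ± 0.38 log2, adjusted p = 0.578). For rbcl, the large subunit of Rubisco, the brightest probe set stood at -0.24 ± 0.12 log2, adjusted p = 0.475, and 7 probe sets ran from -1.16 to 0.32 log2. Against the mean of the other deficiencies PsbP (-1.65 ± 0.28 log2, adjusted p = 0.00208), PsbO (-1.19 ± 0.30 log2, adjusted p = 0.0204) and petC (-1.05 ± 0.30 log2, adjusted p = 0.0326) were called lower in low N, and rbcl was not (-0.20 ± 0.10 log2, adjusted p = 0.186). As markers of green tissue, PsbP, PsbO and petC summed to 439 to 488 in low N and 549.8 to 989 in the control. The sums were 698 to 1371 in low K, 1015 to 1425 in low Mg, 517 to 1384 in low P and 1110.5 to 2292 in low S. They leave out rbcl, whose brightest probe set averaged 19180 in low N and 22732 in the control, with the groups overlapping. The part of green tissue in the other results was not tested.

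**Figure D3:**
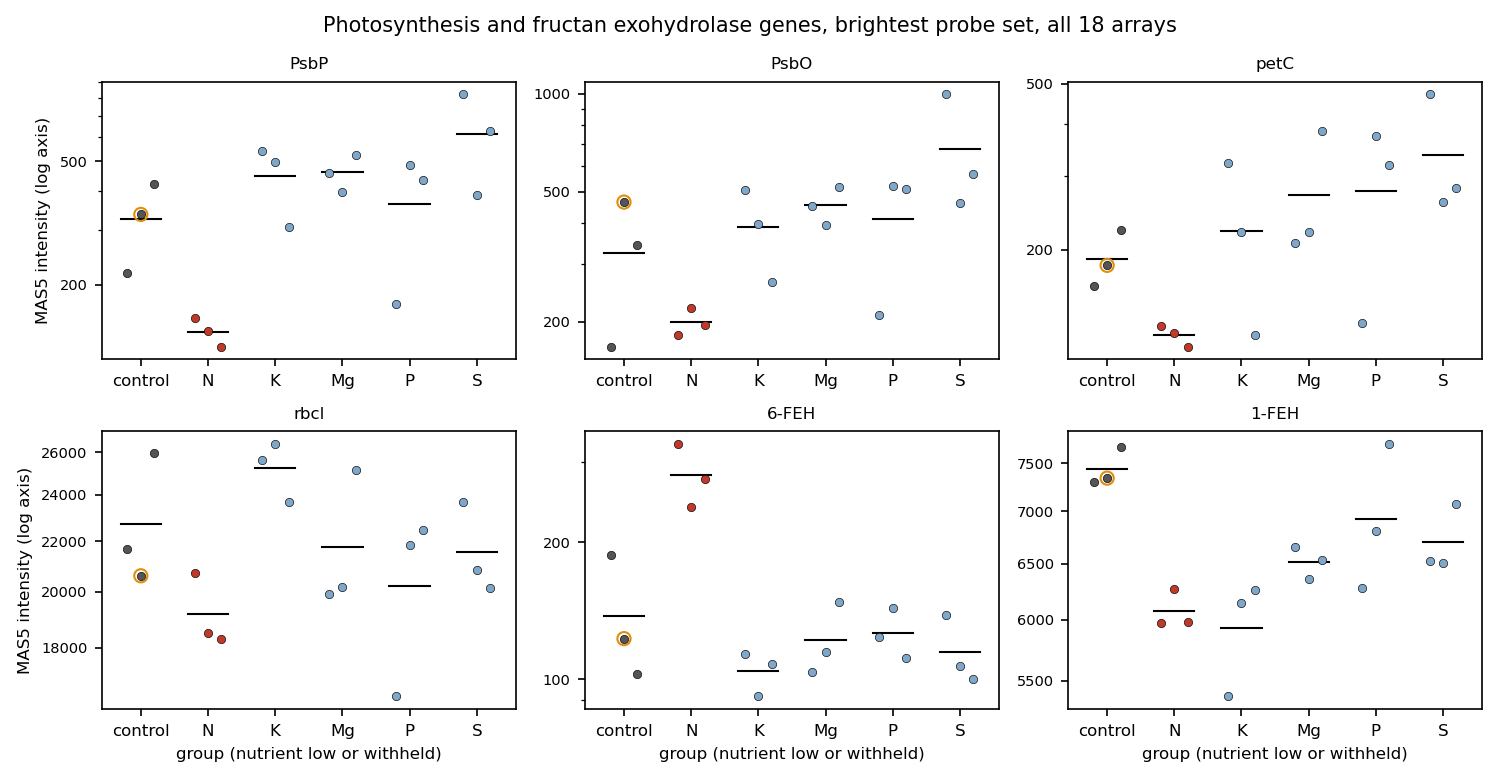
MAS5 intensity (log axis) on the brightest probe set of 4 photosynthesis genes and 2 fructan exohydrolase genes on all 18 arrays by group, where points are arrays, bars group means and the ring control array 2. None of the 6 was called against the control, though 6-FEH in low N (239 to 328) is above every other array and PsbP in low N (127 to 156) is below every other array.

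Other named genes gave values without a call. ALMT1-1, an aluminium-activated malate transporter, read 121, 149 and 126 in low N against 78.4, 54.6 and 56.1 (1.08 ± 0.45 log2, adjusted p = 0.363). The dehydrin gene Rab15, on the probe set with its smallest p, read 6534, 6745 and 6488 against 3087, 4943 and 2200.3 (1.03 ± 0.38 log2, adjusted p = 0.306), and its brightest probe set stood at 0.30 log2. The low N arrays of Rab15 were close together and the control arrays spread more than 2-fold. BMY1, a beta-amylase, stood at -0.60 ± 0.26 log2, adjusted p = 0.401. WMAI-1, an alpha-amylase inhibitor of grain, stood at -0.76 ± 0.33 log2, adjusted p = 0.399, and wci at -0.99 ± 0.41 log2, adjusted p = 0.364, both below an intensity of 110 in the 6 arrays. The beta-tubulin Tubb5 stood at 0.32 ± 0.14 log2, adjusted p = 0.382 on the probe set with its smallest p.

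By group, with the brightest probe set of each gene, 0 members were called by limma in any group. With 0.415% of all tested probe sets called, groups this small can hold 0 calls whether or not they respond. Histones, which package DNA, had a median of 0.04 log2 over 5 genes, and tubulins -0.16 over 6. The 6 translation genes had a median of 0.05, the 4 genes of the methyl cycle and methylation -0.18, and the 4 redox and detoxification genes -0.16. The 4 LEA, dehydrin and Em genes, known from drying seeds, had a median of 0.28 and ran from -0.83 to 1.37. The 4 defence genes had a median of -0.32, the 4 grain protein and inhibitor genes -0.30, and the 3 gibberellin 20-oxidase genes -0.22. These medians stand beside 0.03 for all tested probe sets. Without control array 2 the medians were -0.20 for defence, -0.12 for grain proteins and inhibitors, -0.10 for gibberellin 20-oxidases, -0.26 for tubulins, -0.34 for the methyl cycle and methylation and 0.0024 for translation. For redox and detoxification, LEA, dehydrin and Em, and histones they were -0.10, 0.42 and 0.06, beside 0.06 for all tested probe sets. The root label could not be checked on the root markers listed for it, which matched no gene name. DMAS1, which makes the iron-binding phytosiderophores that grass roots release, averaged 1089 in low N and 1124 in the control. The grain storage genes Gli-8 and Glu-3 averaged 44.7 and 51.9 in low N, and 71.1 and 46.2 in the control. Against the mean of the other deficiencies Gli-8 was called lower in low N (-1.03 ± 0.28 log2, limma adjusted p = 0.0271). Glu-3 was not called there (0.11 ± 0.46 log2, adjusted p = 0.908).

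Without control array 2 the count of calls was 196, or 0.572% of tested probe sets, with 128 lower (0.374%) and 68 higher in low N (0.199%). Of these, 101 were called with all arrays as well, which is 71.1% of the 142 and 51.5% of the 196. Of the falls 89 stayed called, among them all 8 of the steepest, which ranged from -6.12 to -3.19 log2. Ta.6744.2.S1_s_at, for example, stood at -3.41 ± 0.22 log2 (adjusted p = 1.43e-06). Of the 25 rises 12 stayed called, among them Ta.3504.1.A1_at at 1.25 ± 0.19 log2 (adjusted p = 0.00746) and Ta.303.1.S1_at at 1.35 ± 0.21 log2 (adjusted p = 0.00904). Ta.303.1.S1_at lost its call on leaving out each of the other 5 arrays in turn, and Ta.17389.1.S1_at on leaving out any of the 6. The 41 lost calls had adjusted p from 0.0513 to 0.1, and TaAffx.131750.2.S1_at, Ta.5444.1.A1_at and Ta.17389.1.S1_at were among them.

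LOC543150 on Ta.21350.2.S1_at stayed called without control array 2 (-1.88 ± 0.30 log2, adjusted p = 0.0103), as did LOC543105 (-0.60 ± 0.12 log2, adjusted p = 0.0404) and LOC543453 (0.69 ± 0.15 log2, adjusted p = 0.0497). LOC100125738 (adjusted p = 0.0628), LOC780641 (adjusted p = 0.0744), LOC543390 (adjusted p = 0.0642) and the second probe set of LOC543150 (adjusted p = 0.0658) lost their calls. Among named genes, cys1 was the one called without control array 2, on Ta.99.1.S1_x_at. It read 8025, 7191 and 8068 in low N against 10252, 9193 and 11451 in the control. The difference was -0.48 ± 0.09 log2 without control array 2 (limma adjusted p = 0.0308) and -0.40 ± 0.09 log2 with it (adjusted p = 0.0736). The brighter probe set of cys1, Ta.99.1.S1_at, was not called either way. Its difference was -0.37 ± 0.09 log2 without control array 2 (limma adjusted p = 0.0743) and -0.26 ± 0.09 log2 with it (adjusted p = 0.297). 6-FEH stood at 1.00 ± 0.26 log2 without control array 2 (adjusted p = 0.089) and 1-FEH at -0.30 ± 0.09 log2 (adjusted p = 0.134). PsbO stood nearer to 0 than with all arrays, at -0.28 ± 0.41 log2 (adjusted p = 0.817), while PsbP stood at -1.10, petC at -0.61 and rbcl at -0.31 log2. BMY1 stood at -0.33, WMAI-1 at -0.59, wci at -0.85, Tubb5 at 0.17, Rab15 at 1.34 and ALMT1-1 at 0.99 log2, none of them called.

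**Figure D4:**
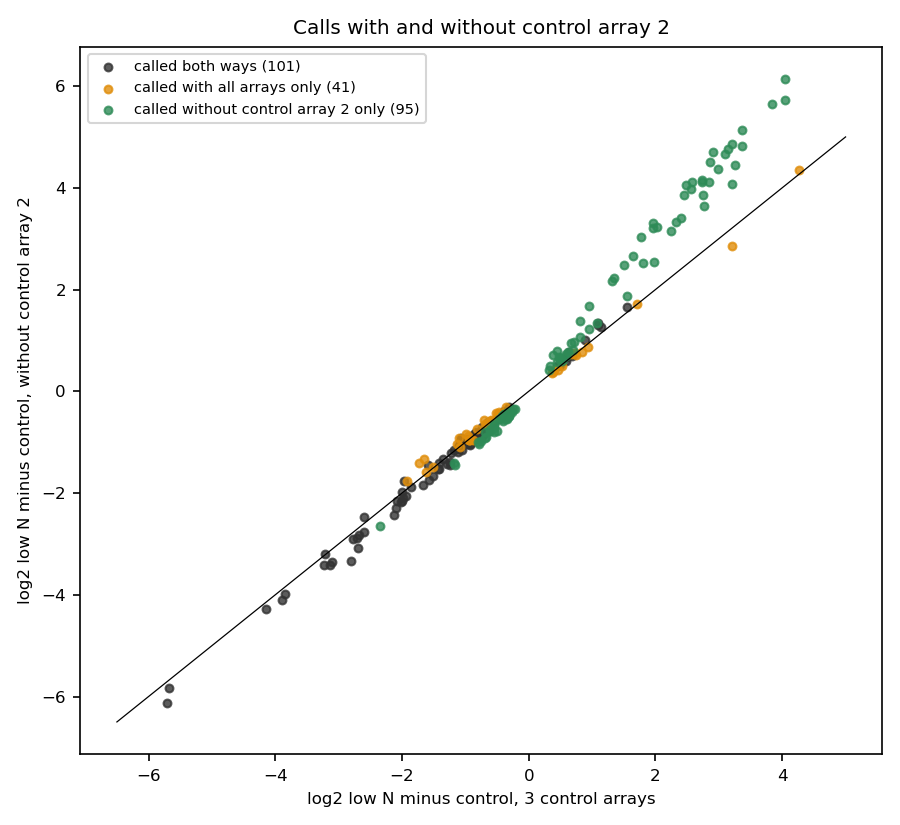
Log2 low N minus control with all 3 control arrays (horizontal) and without control array 2 (vertical), for probe sets called either way, with a line of equal values. Among the 95 called only without control array 2 a run of rises lies well above the line, where dim control values do not fix the size of the difference.

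Of the 95 probe sets called only without control array 2, 56 were rises and 39 falls. Over 2-fold were 41 of the rises and 4 of the falls. These 41 rises were singled out after their values were seen and are described without a test, and none has a gene name. Their median intensity was 15.9, 205 and 23.2 in control arrays 1, 2 and 3, and 285, 86.4 and 347 in low N arrays 1, 2 and 3. Control array 2 was over 2-fold above the brighter of the other control arrays at 37 of the 41, and above at least 1 low N array at 32. A call gained by leaving out control array 2 favours probe sets where that array lies nearest to low N, as it did at all 95. Its height at the 41 thus follows in part from the selection. Over all tested probe sets it was the highest control array at 42.4%. Low N array 2 was the lowest of its group at 31 of the 41.

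The same 41 varied widely over the rest of the series, with array medians of 46.7 to 97.4 in low K, 127 to 270.3 in low Mg, 272 to 552 in low P and 147 to 186 in low S. One of them, Ta.22442.1.S1_at, read 3186, 978 and 3523 in low N and 54.6, 2872 and 433 in the control. Its difference was 2.45 ± 0.99 log2 with all arrays (adjusted p = 0.355) and 3.85 ± 0.82 log2 without control array 2 (adjusted p = 0.0492). Against the mean of the other deficiencies it stood at 0.05 ± 0.79 log2 (adjusted p = 0.977). At this probe set the control arrays spanned a wider range than the low N arrays.

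**Figure D5:**
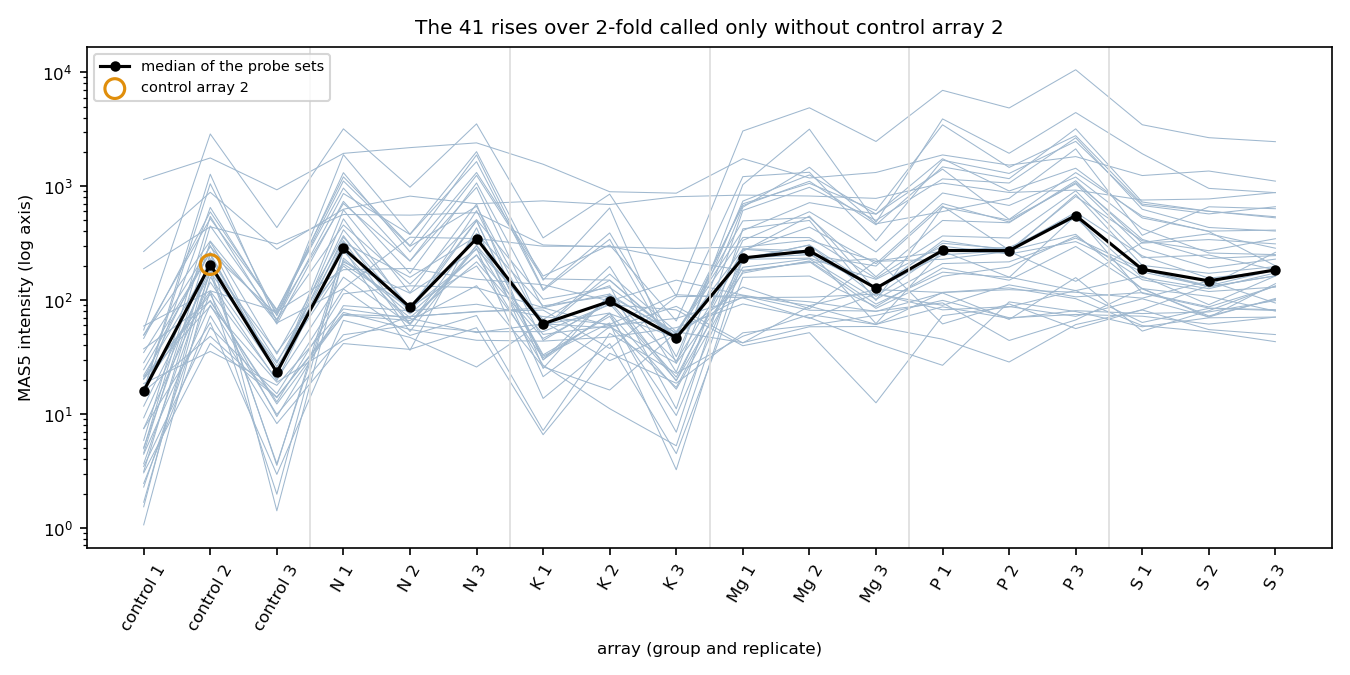
MAS5 intensity (log axis) of the 41 rises over 2-fold called only without control array 2, on each of the 18 arrays, where thin lines are probe sets, the black line joins their medians to guide the eye and the ring marks control array 2. The median is 15.9 and 23.2 in control arrays 1 and 3, 205 in control array 2 and 86.4 in low N array 2. The way these probe sets were picked favours a high control array 2.

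Control array 1 was the brightest control array at 71 of the 117 falls and at 19 of the 20 falls over 4-fold, against 31.3% of all tested probe sets. Without it 58 probe sets were called, 50 lower and 8 higher. Ta.4360.1.A1_at then stood at -5.18 log2 (adjusted p = 0.000462), Ta.13989.1.S1_at at -5.15 log2 (adjusted p = 0.00408) and LOC543150 on Ta.21350.2.S1_at at -1.88 log2 (adjusted p = 0.0194). Whichever of the 6 arrays was left out, 39 probe sets stayed called, 38 falls and 1 rise. They include 6 of the 8 steepest falls, all but TaAffx.115546.1.S1_at and Ta.6831.1.S1_at, and the larger fall of LOC543150.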

How the data were processed

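The authors deposited 1 intensity per probe set for each of 18 Affymetrix wheat arrays, not on a log scale. Affymetrix Expression Console and MAS5 are the tools that the submitters' processing notes list, without versions. The input was 500 ng of total RNA, per the labels' protocols. The mean without the top and bottom 2% of values was 500.1 on all arrays, so each had been scaled to it. Precision is limited by 3 arrays a group.

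The 111 control probe sets were left out. Log2 intensities of all 18 arrays, with no added constant, entered a limma 3.58.1 fit of 6 group means (R 4.3.3, eBayes with an intensity trend, 12 residual degrees of freedom), two-sided. On simulated data over 34255 probe sets for low N against control, the fit recovered 65 of 100 changes of 1 log2 and 96 of 100 of 2 log2, with 8 false calls. That simulation drew independent normal noise around a mean common to all groups, and placed no change in the most variable probe sets. It held no deviating array and no linked probe sets, so it does not give the error rate of the real comparison. Figures used matplotlib 3.10.9.

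Named are the 8 largest rises and falls among non-overlapping calls with a brighter group mean of at least 100, every called gene of the annotation, the photosynthesis and fructan genes, and named genes at an unadjusted p under 0.05 with the 6 highest (4 were higher) and 6 lowest differences. Ta.303.1.S1_x_at, Ta.28002, Ta.22442.1.S1_at, LOC543197, LOC100125710, DMAS1, Gli-8 and Glu-3 were added after their values were seen. The members and lists were chosen with earlier results of these data known. The annotation gave 1 gene for 1273 probe sets and several for none. Of its 771 genes, 770 matched RefSeq gene names (IWGSC CS RefSeq v2.1), used for names only. Of 24 lists matched to gene names 10 held no gene, and 0 genes were called in the others, beside 0.415% of all tested probe sets. Groups were then formed from the names. Deviations from group means of same-numbered low N and control arrays correlated at 0.05, -0.05 and 0.02. Differently numbered arrays correlated at -0.07 to 0.06. With 3 arrays a group these values cannot decide whether arrays of the same number share a block. Alternatives were another normalization, added constant, filter or trend, fewer arrays, and the replicate number as a block.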

Additional observations from a re-analysis of the deposited data

How the results depend on the processing

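The count of 142 calls was 153 under quantile normalization, 165 under 75th-percentile centring, 144 with log2(intensity + 16), 103 with no filter, 160 with a filter at the median on all 18 arrays and 123 with the replicate number as a block. It was 57 with the 6 compared arrays alone and 51 with no intensity trend. Leaving out 1 array gave 58 to 196, with 58, 196 and 88 without control arrays 1, 2 and 3, and 65, 66 and 67 without low N arrays 1, 2 and 3. The share of higher calls, 17.6%, was 34.7% without control array 2 and 6.06% without low N array 2. Of the 142, 126 stayed called under quantile normalization, 131 under centring, 102 under the block, 51 with no trend and 45 with 6 arrays. The 3961 calls against the other deficiencies became 1593, 2145 and 1337 without low N arrays 1, 2 and 3. Beyond the fewer arrays, the cause was not tested. None of the probe sets picked by the naming rule changed direction in the alternatives run on them, which were not all run on the probe sets added later, such as those of DMAS1 and Glu-3. 6-FEH was called without control array 1 (adjusted p = 0.0253), with the added constant (adjusted p = 0.0445) and under the stricter filter (adjusted p = 0.0348), and cys1 also under quantile normalization (adjusted p = 0.0488) and the block (adjusted p = 0.0405). Of the numbered genes, LOC543150 on Ta.21350.2.S1_at kept its call without any 1 of the 6 arrays, and the other called probe sets with a gene lost theirs on leaving out 4 or 5 of the 6 in turn. Dim probe sets have no detection call, which limits their folds.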

Other observations

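Ta.18257.1.A1_x_at, picked after its values were seen, read 5832, 5768 and 5803 in low N, an SD of 32.1, and 22022, 14334 and 19692 in the control (-1.66 ± 0.14 log2, limma adjusted p = 2.18e-05, and -1.84 ± 0.12 log2 without control array 2, adjusted p = 1.43e-06). In the other deficiencies its means were 21633 ± 3725 in low K, 12627 ± 1540.1 in low Mg, 18482 ± 273 in low P and 13457 ± 839 in low S (SD, n = 3 each), and low N lay below all 15 other arrays. It has no gene name in the annotation.

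The 5′/3′ ratio of the actin control probe sets was 0.0912 in control array 3, 2.53 and 3.62 in control arrays 2 and 1, and 0.933 to 3.01 in low N. The 5′ probe set stood at 7.57 on control array 3 and at 28.5 to 182 on the other 5 arrays compared, and the 3′ probe set at 30.6 to 83.0 on all 6.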
